A study of Mus musculus with 2 samples.

Results

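Killer lectin-like receptors and the other receptors by which natural killer (NK) cells and related lymphocytes read their surroundings were examined in regulatory innate lymphoid cells (ILCregs). Members were the array features with 1 gene symbol in the platform annotation that named a Klra, Klrb, Klrc, Klrd, Klre, Klrg, Klri or Klrk gene, Cd244, a Slamf gene, Cd160, Cd7, Ncr1, Tyrobp, Hcst, a Clec2 gene, Raet1 or Ulbp1. This gave 43 features for 43 genes, of 28573 features with 1 symbol and 61344 features in all. A symbol listed more than once for a feature was counted as 1 symbol. They comprised 7 Klra genes, 6 Klrb genes, 10 Klrc, Klrd, Klrk and remaining killer lectin-like genes, 6 SLAM family genes, 9 genes placed with the ligands, and 5 adaptor and other receptor genes. Membership follows gene names, and Klrg2, Clec2l, Slamf8 and Slamf9 belong to these families by sequence without an established role as NK cell receptors.

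IL-10-GFP knockin mice of the C57BL/6 strain, which report interleukin 10 through a fluorescent protein, gave the cells at an age of 8 weeks, and ILCregs were sorted from their small intestine. There was 1 group of 2 whole-transcript arrays, replicate 1 and replicate 2, and every sample carried the knockin. No other cell population or genotype was compared here, and the labels do not say whether the arrays came from separate mice, and their spread may therefore be a technical one. The stated post-sort purity was over 95%. Il10 had signals of 10.59 and 11.05 in replicates 1 and 2, the order kept for every pair of values here. Id3, Id2, Il7r, Ptprc and Sox4 were also above the threshold described below, whereas the surface marker gene Thy1 was not (5.56 and 5.72). These genes were chosen after the signals were seen, and markers of other cell types passed too, so they do not test the label.

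Killer lectin-like receptors are surface proteins with a C-type lectin-like domain, and in mice most of their genes lie together in the NK gene complex. Inhibitory members carry tyrosine motifs that recruit phosphatases, while activating members pair with small adaptor proteins, above all DAP12 (Tyrobp), DAP10 (Hcst) and the Fc receptor gamma chain (Fcer1g). The Ly49 receptors, encoded by Klra genes, and the CD94-NKG2 receptors, encoded by Klrd1 and Klrc genes, read MHC class I molecules. The NKR-P1 receptors, encoded by Klrb genes, bind Clec2 proteins encoded beside them, and SLAM family receptors mostly bind themselves and signal through the adaptors SAP (Sh2d1a) and EAT-2 (Sh2d1b1).

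Values are the authors' processed signals, taken as log2, and a fold holds only if the base is 2. The threshold on each array was the 95th percentile of 1679 olfactory, vomeronasal and taste receptor features, 6.74 for replicate 1 and 6.19 for replicate 2. A call required a feature to exceed it on each of the arrays. A feature below it could not be told apart from the reference, which does not show that the transcript was absent. Probes differ in affinity, so signals do not rank different genes by abundance, and with 1 group there was no test between groups.

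Few killer lectin-like receptor genes stood above the reference, while the SLAM family, the adaptor gene Tyrobp and some Clec2 ligand genes did. Of the 43 members, 13 exceeded the threshold on both arrays, 6 did so on a single array and 24 did not. The share of 30.2% stood beside 31.7% of all features with 1 symbol and 39.0% of protein-coding features outside the reference, and so was near the background. The members divided by family: 2 of 23 killer lectin-like receptors (8.7%) were above the threshold on both arrays, against 11 of 20 other members (55.0%). The median signal of the members was 5.75, beside 5.43 over all features with 1 symbol and 4.47 over the reference. Of these 24 members, 20 lay below the 90th percentile of the reference on both arrays.

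**Figure D1:**
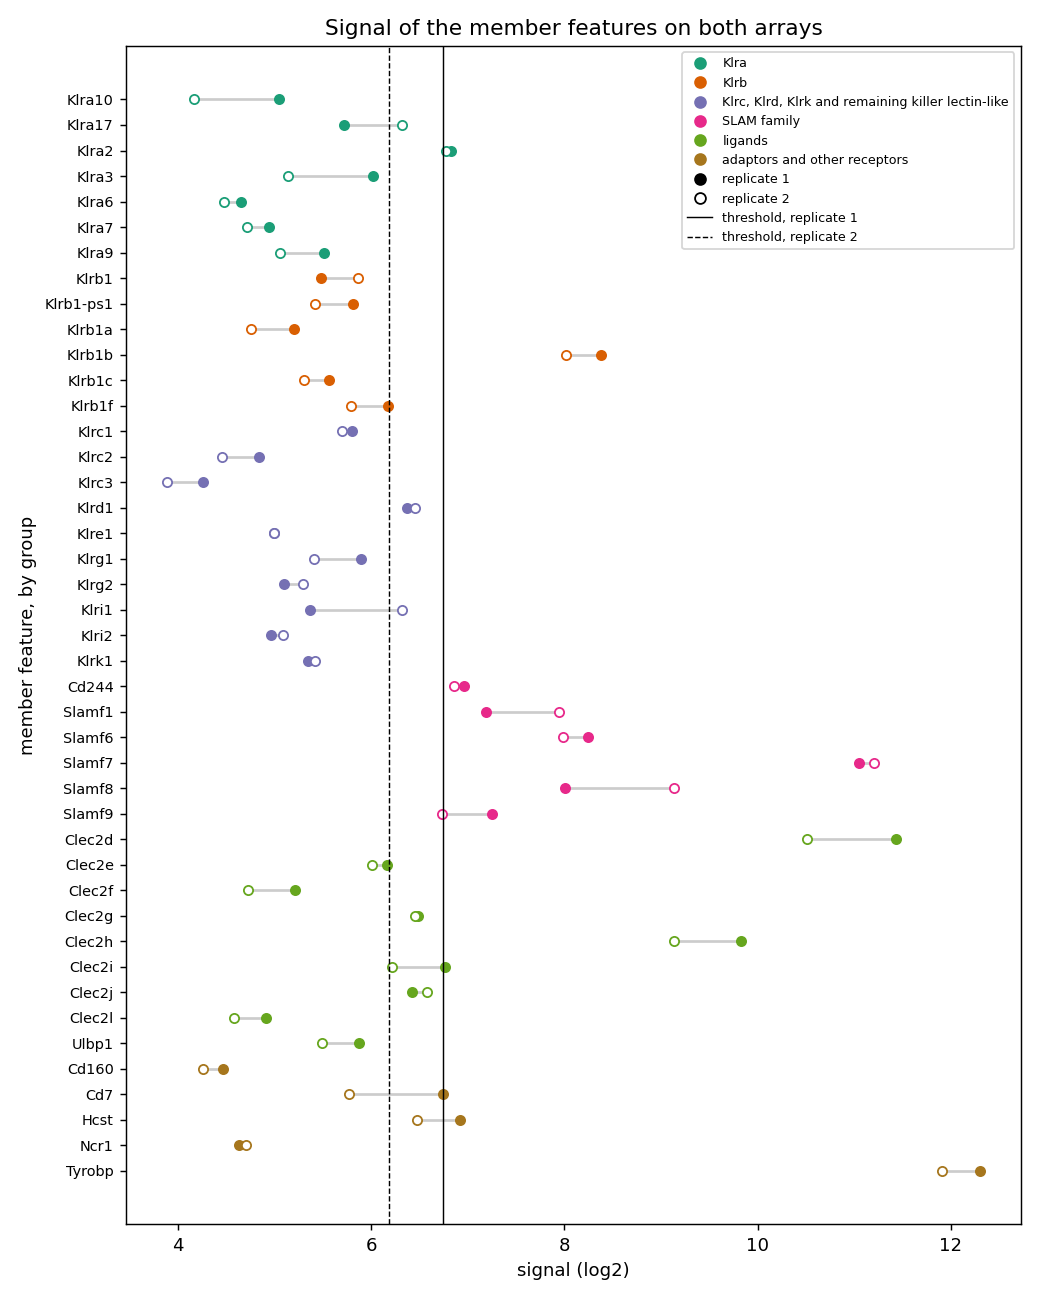
Signal (log2) of each of the 43 member features, by group. Filled points are the array of replicate 1 and open points that of replicate 2, and the lines mark the thresholds of 6.74 and 6.19. Tyrobp, Slamf7, Clec2d and Clec2h lie well to the right of both lines, and most Klr genes to the left.

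**Figure D2:**
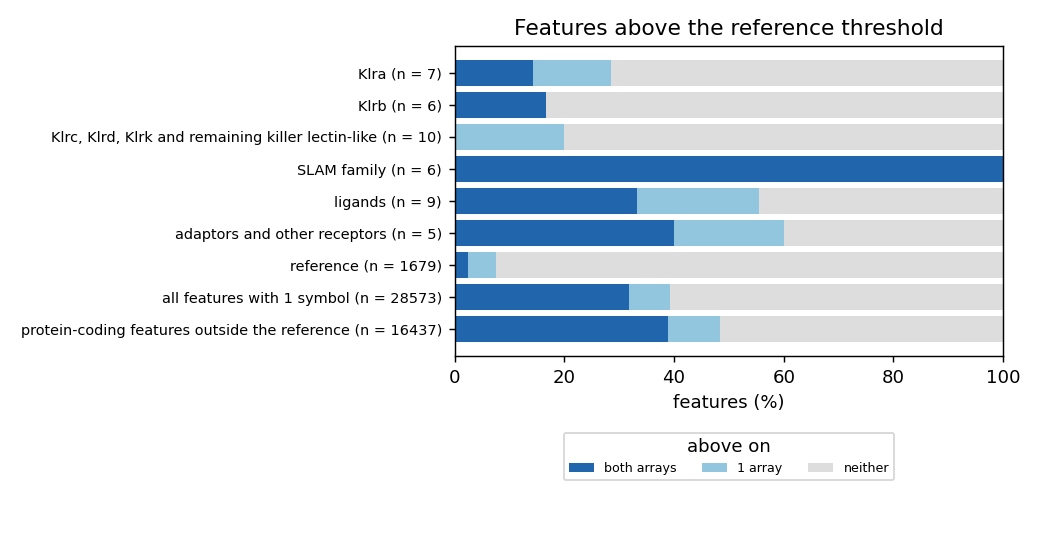
Share of features (%) above the reference threshold on both arrays, on a single array or on none, for the 6 member groups, the reference, all features with 1 symbol and protein-coding features outside the reference. All 6 SLAM family features are above it on both arrays, against 0 of 10 Klrc, Klrd, Klrk and remaining killer lectin-like features.

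Promoter sequences are shown for 2 members above the threshold that form a receptor and ligand pair, Klrb1b and Clec2d, and for 2 activating receptor genes below it, Ncr1 and Klrk1. Each runs 5′ to 3′ on the gene's own strand, from RefSeq on build GRCm38.p6. Capitals mark matches, on either strand, to TGTGGT, the core bound by Runx factors, and GAGGAA, a purine-rich core bound by Ets factors such as PU.1; AGGTGTGA, a T-box core, was also searched. The Klrb1b window is chr6:128826266-128826565 on the minus strand, the Clec2d window chr6:129180365-129180664 on the plus strand, the Ncr1 window chr7:4337465-4337764 on the plus strand and the Klrk1 window chr6:129623815-129624114 on the minus strand.
Klrb1b: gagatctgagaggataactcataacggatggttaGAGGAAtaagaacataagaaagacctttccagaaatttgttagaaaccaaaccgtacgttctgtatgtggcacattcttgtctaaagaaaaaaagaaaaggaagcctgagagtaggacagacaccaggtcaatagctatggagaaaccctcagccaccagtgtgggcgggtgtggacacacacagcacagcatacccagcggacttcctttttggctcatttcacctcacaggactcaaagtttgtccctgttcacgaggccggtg
Clec2d: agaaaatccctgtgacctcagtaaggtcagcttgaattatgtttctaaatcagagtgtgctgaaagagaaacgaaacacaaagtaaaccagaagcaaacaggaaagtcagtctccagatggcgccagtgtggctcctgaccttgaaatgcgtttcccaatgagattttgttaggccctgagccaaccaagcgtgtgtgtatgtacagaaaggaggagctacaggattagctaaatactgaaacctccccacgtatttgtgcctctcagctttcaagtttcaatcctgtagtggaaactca
Ncr1: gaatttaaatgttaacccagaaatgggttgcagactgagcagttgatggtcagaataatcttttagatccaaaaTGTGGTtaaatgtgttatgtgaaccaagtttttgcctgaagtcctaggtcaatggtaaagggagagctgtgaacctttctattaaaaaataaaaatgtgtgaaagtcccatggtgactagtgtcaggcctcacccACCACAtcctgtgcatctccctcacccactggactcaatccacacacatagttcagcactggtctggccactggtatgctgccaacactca
Klrk1: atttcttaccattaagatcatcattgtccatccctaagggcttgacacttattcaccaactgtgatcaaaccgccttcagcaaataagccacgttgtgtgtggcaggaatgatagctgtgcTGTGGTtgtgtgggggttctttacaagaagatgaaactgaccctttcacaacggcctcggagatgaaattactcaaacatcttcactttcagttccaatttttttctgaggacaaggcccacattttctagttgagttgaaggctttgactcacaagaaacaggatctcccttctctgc

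Of the 43 members, 35 had a promoter entry. TGTGGT was found in 0 of 12 promoters of members above the threshold on both arrays and in 10 of 23 of the others, among them Klrb1a, Klrb1c, Klrc1, Klrc2, Klrc3, Klre1, Klrk1 and Ncr1, beside 16.9% of all 27025 promoters of this length. GAGGAA was found in 6 of 12 and 11 of 23, beside 28.3% of all promoters. AGGTGTGA was found in 0 of 35, beside 1.27% of all promoters. The motifs were chosen after the signals were seen, neighbouring genes share sequence by descent, and a match is a description and not a bound site.

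The Ly49 genes were mostly below the threshold. Their median signal was 5.29, beside 4.47 over the reference and 5.43 over all features with 1 symbol. Klra2, which encodes Ly49B, a receptor known from myeloid cells, had signals of 6.83 and 6.78 on the arrays of replicates 1 and 2, above the threshold on both but by only 0.08 on the first. Klra17, which encodes Ly49Q, known from plasmacytoid dendritic cells and other myeloid cells, had 5.72 and 6.32 and passed only on the array of replicate 2. The other 5 genes passed on neither array. Klra3, which encodes the inhibitory MHC class I receptor Ly49C, gave 6.02 and 5.14. Klra7, the inhibitory receptor Ly49G, gave 4.94 and 4.72, and Klra6 had the lowest mean of the group at 4.65 and 4.48. Klra9 (5.51 and 5.06) and Klra10 (5.05 and 4.17) completed it. Ly49 genes resemble each other closely enough for probes to cross-react, so single genes of this group are uncertain.

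Among the NKR-P1 genes, Klrb1b stood apart from the rest. It encodes an inhibitory receptor for the Clec2d product Clr-b, and its signals of 8.38 and 8.02 were 1.63 and 1.83 above the thresholds. Klrb1c, which encodes the NK1.1 antigen used to define NK cells in C57BL/6 mice, had 5.57 and 5.31, within the reference range on both arrays. The activating receptor gene Klrb1a was lowest at 5.20 and 4.76. Klrb1f gave 6.18 and 5.79, Klrb1, which encodes NKR-P1G, gave 5.48 and 5.87, and the pseudogene Klrb1-ps1 gave 5.81 and 5.42. Thus 1 of 6 passed on both arrays and the other 5 on neither.

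None of the 10 Klrc, Klrd, Klrk and remaining killer lectin-like genes passed on both arrays. Klrd1, which encodes CD94, the shared chain of the CD94-NKG2 receptors, was closest, with 6.37 and 6.45, above the threshold only on the array of replicate 2. Its inhibitory partner gene Klrc1 (NKG2A) gave 5.80 and 5.70, and the activating Klrc2 (NKG2C) gave 4.84 and 4.46. Klrc3 (NKG2E) had the lowest mean of all 43 members, at 4.26 and 3.89. Klrk1, which encodes the activating receptor NKG2D, had 5.35 and 5.42. The receptor gene Klrg1, a marker of mature effector lymphocytes and of some ILC2s, had 5.90 and 5.41. Klri1 reached the threshold only on the array of replicate 2 (5.37 and 6.32), and its relative Klri2 on neither (4.96 and 5.09). Klre1 stood at 5.0 on both arrays, and Klrg2 at 5.10 and 5.30.

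All 6 SLAM family members were above the threshold on both arrays. Slamf7, which encodes CRACC, a receptor of NK cells, plasma cells and macrophages, had 11.05 and 11.20, 4.31 and 5.01 above the thresholds. Slamf8, which encodes a receptor of macrophages, had 8.01 and 9.14. Slamf6, the lymphocyte receptor Ly108, had 8.25 and 7.99, and Slamf1 (CD150) had 7.19 and 7.94. Slamf9 had 7.25 and 6.73, and Cd244, the receptor 2B4 of NK cells and some T cells, had 6.96 and 6.86. Slamf6, Slamf7 and Slamf8 also exceeded the 99th percentile of the reference on both arrays, and Cd244, Slamf1 and Slamf9 did not. With keratin-associated protein and Rhox genes as the reference, Cd244 did not pass and 5 of 6 did.

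The ligand genes fell apart into a few with clear signal and several that were not above the threshold on both arrays. Clec2d, which encodes Clr-b, a widely expressed ligand of NKR-P1B, had 11.43 and 10.51. Clec2h, which encodes Clr-f, known from intestinal epithelium, had 9.83 and 9.13. Clec2i, which encodes Clr-g, passed by 0.03 on each array, at 6.77 and 6.22. Clec2g (6.49 and 6.45) and the pseudogene Clec2j (6.42 and 6.58) passed only on the array of replicate 2. Clec2e (6.17 and 6.01), Clec2f (5.21 and 4.73) and Clec2l (4.91 and 4.58) passed on neither. Ulbp1, which encodes the NKG2D ligand MULT1, had 5.88 and 5.49. No feature with 1 symbol named a Raet1 gene.

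The adaptor genes and the remaining receptors were divided. Tyrobp, which encodes DAP12, had 12.30 and 11.91, 5.55 and 5.72 above the thresholds. Hcst, which encodes the NKG2D adaptor DAP10, had 6.92 and 6.48, above the thresholds by 0.18 and 0.29. Cd7, a lymphocyte surface antigen, had 6.74 and 5.77 and passed only on the array of replicate 1. Ncr1, which encodes NKp46, a defining receptor of NK cells, ILC1s and some ILC3s, gave 4.63 and 4.71. Cd160, an Ig-family receptor of NK cells and intraepithelial lymphocytes, gave 4.47 and 4.26.

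By position, 5 of 31 members on chromosome 6 (16.1%) were above the threshold on both arrays, namely Klra2, Klrb1b, Clec2d, Clec2h and Clec2i, beside 31.7% of all features with 1 symbol. These 31 are the 23 killer lectin-like receptors and 8 Clec2 genes, so this is largely the division by family given above. Of the 12 members on other chromosomes, 8 (66.7%) were above it, the 6 SLAM family genes, which lie on chromosome 1, and Tyrobp and Hcst on chromosome 7.

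Receptors were next set beside their known ligands, adaptors and partner chains in 20 pairs, chosen after the signals were seen. In 3 pairs both genes were above the threshold on both arrays, in 9 only the partner was, in 3 only the receptor was, and in 5 neither was. Over all features with 1 symbol, 31.7% were above it, and no pairs of other genes were counted. The pairs with both were Klrb1b with Clec2d, Cd244 with its ligand gene Cd48 (9.48 and 9.46), and Slamf7 with the EAT-2 gene Sh2d1b1 (6.83 and 8.31). Cd244 (6.96) and Sh2d1b1 (6.83) were close to the threshold of 6.74 on the array of replicate 1. Both were below the 7.02 that keratin-associated protein and Rhox genes gave there as the reference. So were Clec2i (6.77) and Hcst (6.92), whose pairs with Klrb1f and Klrk1 are among those with only the partner above. The SAP gene Sh2d1a had 6.73 and 6.26 and passed only on the array of replicate 2, so its pairs with Cd244, Slamf1 and Slamf6 had only the receptor above. Fcer1g, the adaptor gene of NK1.1 and NKp46, had 10.84 and 10.20, beside Klrb1c and Ncr1, which were below the threshold on both arrays. Cdh1, which encodes the KLRG1 ligand E-cadherin, had 12.49 and 12.65, and the MHC class I gene H2-K1, whose product Ly49C binds, had 14.89 and 15.45. Tnfrsf14, which encodes the CD160 ligand HVEM, had 7.63 and 7.43. Of both NKG2D ligand genes measured, Ulbp1 and H60c (3.94 and 4.15), neither passed.

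**Figure D3:**
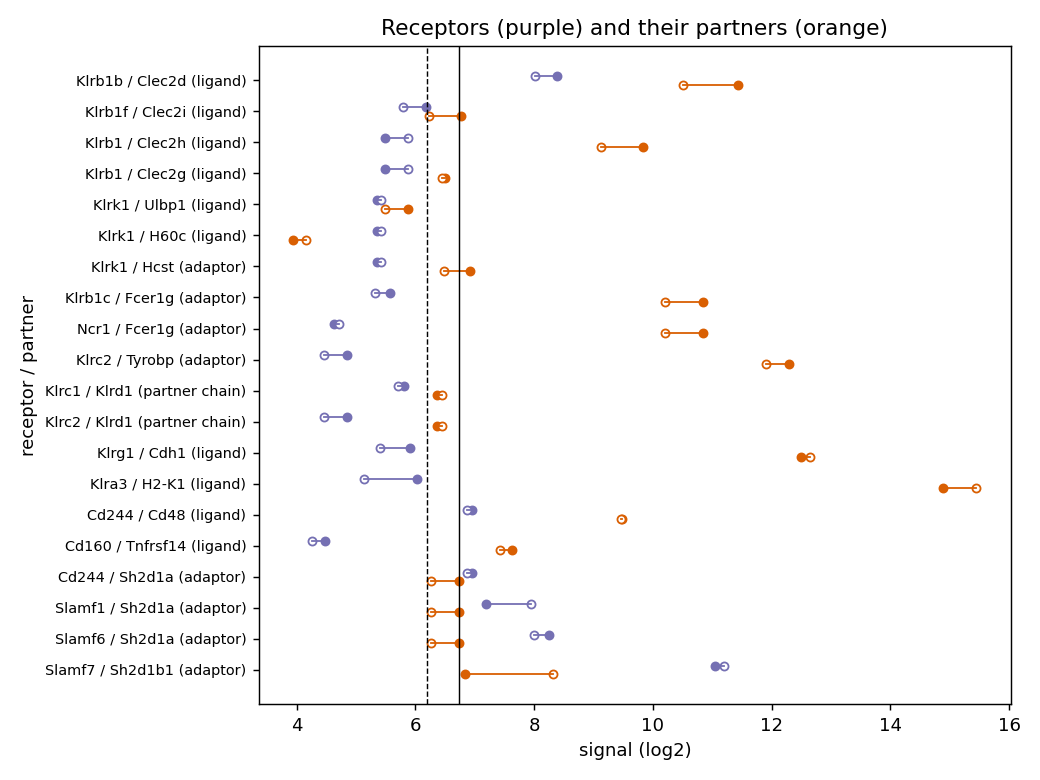
Signal (log2) in 20 pairs of a receptor gene (purple) with a ligand, adaptor or partner chain gene (orange); some genes are in several pairs. Filled points are the array of replicate 1 and open points that of replicate 2, and the solid and dashed lines are the thresholds of 6.74 and 6.19. In 9 pairs only the partner lies above both thresholds, and in 3 pairs both genes do.

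Of 14 measured ligands and partner genes outside the member names, 10 passed on both arrays. Of 23 measured genes of NK receptor signalling, 14 passed on both arrays, 7 only on a single array and 2 not at all. At the 99th percentile of the reference, 9 of them passed. Beside the counts of this paragraph stand 31.7% of all features with 1 symbol and 39.0% of protein-coding features outside the reference. The lists took the highest feature of each gene and were not tested against these shares. The kinase gene Syk, which binds DAP12, had 8.27 and 8.29, and the phosphatase gene Ptpn6 (SHP-1), recruited by inhibitory receptors, had 7.68 and 7.66. Cd247, the zeta chain gene of T cell and NK cell receptors, had 5.32 and 4.94. Of 16 other NK cell and ILC1 genes, 10 passed on both arrays, among them Gzmb (13.40 and 13.37), Gzma (11.66 and 11.44), Nkg7 (10.59 and 9.89) and Il2rb (10.06 and 9.84), and 4 on neither, Gzmc, Prf1 (5.56 and 5.46), Eomes (5.54 and 4.82) and Tbx21 (6.21 and 6.10).

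Several members with signal are also expressed by other cells whose markers were on the arrays. Of 10 macrophage and monocyte markers, 9 passed, with list medians of 9.50 and 10.11 on the arrays of replicates 1 and 2. Among those that passed were Lyz2 (14.76 and 14.66) and C1qb (12.20 and 12.55). Cd163 (5.64 and 5.52) did not pass. Of 9 B and plasma cell markers, 6 passed, with medians of 7.10 and 7.41. Those that passed were Jchain (17.47 and 18.11), Xbp1 (13.24 and 13.76), Cd79a (6.76 and 7.41), Cd79b (7.10 and 7.13), Sdc1 and Prdm1. Pax5 (4.86 on both arrays), Cd22 and Tnfrsf17 did not pass. Of 9 stromal markers 9 passed, with medians of 11.06 and 13.10, and Dpt (19.80 and 19.86) and Dcn (19.28 and 19.34) were at or near the highest value on the arrays, 19.86. Dendritic cell (5 of 10), endothelial (4 of 8), granulocyte and mast cell (2 of 11) and ILC2 and ILC3 (3 of 9) markers passed in these numbers. Over all features with 1 symbol, the share was 31.7%. Of 15 epithelial markers 14 passed, with medians of 11.62 and 11.85. Of 11 T cell markers 6 passed, 1 did so on a single array and 4 did not, with medians of 6.90 and 7.10. Cd3e (9.68 and 9.90), Cd3g (8.97 and 9.25), Cd3d (8.97 and 8.61) and Cd4 (7.51 and 8.38) passed. So did Cd8b1 (7.43 and 7.12) and Bcl11b (6.90 and 7.10). Cd247, Cd8a (5.33 on both arrays), Trat1 and Themis passed on neither array. The part of these cells in the signals of Tyrobp, Slamf1, Slamf6, Slamf7, Slamf8, Cd244, Fcer1g, Clec2d and Clec2h was not tested. Fewer cells of a type cannot be told apart from less RNA per cell.

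Between the arrays, 42 of 43 members differed by 2-fold or less. The difference of replicate 2 minus replicate 1, less the median difference of all features with 1 symbol, had a median of -0.21 over the 43 members, with 14 above and 29 below 0. The largest was that of Slamf8 at 1.18, which made 1 of 43 members over 2-fold different, beside 3.47% of all features with 1 symbol. Among features above the threshold, 2.17% were over 2-fold higher in replicate 2, as was Slamf8 among 13 such members, and 2.05% in replicate 1, as was none of the 13. Klri1 (0.99), Slamf1 (0.80), Klra17 (0.65) and Klrb1 (0.44) followed upward. Downward, the largest were Cd7 (-0.93), Clec2d (-0.87), Klra3 and Klra10 (both -0.83) and Clec2h (-0.65). Of these genes, Klri1, Klra17, Klrb1, Cd7, Klra3 and Klra10 were not above the threshold on both arrays. The centred difference was below 0 for 6 of 7 Klra, 5 of 6 Klrb, 7 of 9 ligand and 4 of 5 adaptor and other receptor genes, with medians of -0.17, -0.32, -0.34 and -0.33. It was below 0 for 4 of 10 Klrc, Klrd, Klrk and remaining killer lectin-like genes and 3 of 6 SLAM family genes, with a median of 0.08 in each. Over the reference, 999 of 1679 features were below 0, with a median of -0.11. The epithelial markers had a median of -0.18. The macrophage markers had a median of 0.17 and ranged from -0.87 (Fcgr1) to 0.86 (Adgre1), beside 1.18 for Slamf8 and -0.33 for Tyrobp. Some markers of other cells differed by more than 2-fold in either direction. The stromal genes Col3a1 (2.08), Col1a2 (1.89) and Col1a1 (1.74) were higher in replicate 2, in a list with a median of 0.18. S100a8 (-1.44), which was above the threshold on neither array, S100a9 (-1.15) and the epithelial gene Fabp1 (-1.09) were lower. Each difference sets 1 array against 1 and has no replicate check.

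**Figure D4:**
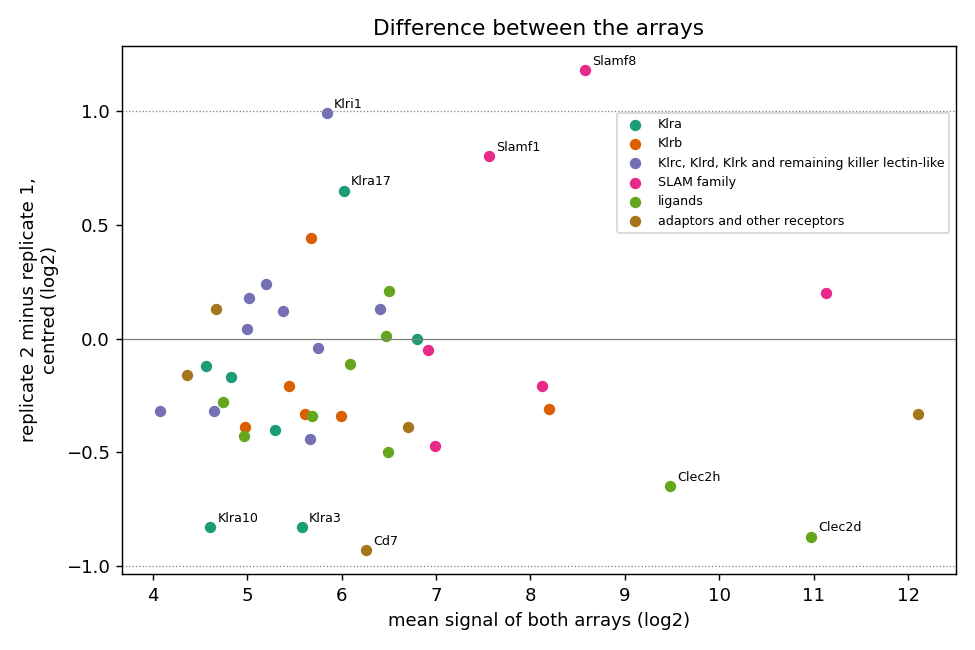
Centred difference of replicate 2 minus replicate 1 (log2) against the mean signal of both arrays (log2) for the 43 members, coloured by group. Dotted lines mark a 2-fold difference. Of the 43 points, that of Slamf8, at 1.18, lies beyond them.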

How the data were processed

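The authors deposited 1 processed log2 signal per feature and array, between 2.10 and 19.86; the scale was taken from this range. MAS5 is named without version or role, per the submitters' processing notes. How features were summarized, background-corrected and scaled, and on which genome build, is not given in the sources used here. Per the labels' protocols, RNA was extracted with TRIZOL and amplified by a whole-transcript Pico method.

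Features were named from the platform annotation: 28573 had 1 distinct symbol, 2014 several and 30757 none. All 43 members were found in the GRCm38.p6 gene table, and 1 symbol was updated there (Cd244 to Cd244a). For marker lists a gene's feature of highest mean signal was used. Calls and differences were computed with Python 3.11.15, pandas 2.3.3 and numpy 2.4.6 and tested on simulated data. There the planted levels lay mostly well above the threshold, and the noise was smaller than the replicate SD of the members. The simulation therefore cannot show how reliable calls near the threshold are, and 5 called members lay within 0.5 of it on at least 1 array. The members and lists were chosen with earlier results of these data known. Il10, Id3, Id2, Il7r, Ptprc, Thy1 and Sox4, the motifs and the receptor pairs were chosen after the signals were seen. Values are given for every member and for selected list genes, mainly ligands and adaptors of members; the other list genes are given as counts. The number of arrays, 2, limits the precision. Alternatives were the reference percentile and genes, quantile normalization, centring, filters, symbols, features per gene and leaving out each array.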

Additional observations from a re-analysis of the deposited data

How the results depend on the processing

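No paired analysis was possible because there was 1 group. Of 138 alternative values, 116 stayed within tolerance and 22 did not. Counts and median signals have no direction to reverse. The median difference was below 0 in each alternative, from -0.28 to -0.16. Taking 1 value per gene could not change the member count, because each member gene had 1 feature. The tolerance was 1.5 times for a count, 0.08 for the median signal (the SD of the medians of both arrays) and 0.35 for the median difference (the pooled replicate SD of the members). That last tolerance is larger than the size of the median difference itself, -0.21, so staying within it says little about that result. Members above the threshold numbered 18 at the 90th percentile, 9 with keratin-associated protein and Rhox genes as reference, 13 after quantile normalization, and 18 and 14 without replicate 1 and replicate 2. At the 99th percentile 7 remained, Klrb1b, Slamf6, Slamf7, Slamf8, Clec2d, Clec2h and Tyrobp; Cd244, Clec2i, Hcst, Klra2, Slamf1 and Slamf9 were lost, which a stricter threshold gives by construction. By group, the 99th percentile left 0 Klra, 3 SLAM family and 1 adaptor and other receptor gene. The keratin-associated protein and Rhox reference lost Cd244, Clec2i, Hcst and Klra2, leaving 0 Klra, 5 SLAM family, 2 ligand and 1 adaptor and other receptor gene. The 90th percentile gave 2 Klrb, 1 of the Klrc, Klrd, Klrk and remaining killer lectin-like and 5 ligand genes. Leaving out an array gave 1 to 2 Klra, 0 to 2 Klrc, Klrd, Klrk and remaining killer lectin-like, and 3 to 5 ligand genes, the higher values without replicate 1. A call on a single array, like a lower percentile, is a looser rule, under which these counts cannot fall. At the 99th percentile the lists of B and plasma cells, endothelium, granulocytes and mast cells, ligands and partners, NK and ILC1 cells, NK receptor signalling and T cells had 2, 2, 1, 6, 6, 9 and 3 genes above. The median signal of the members was 7.56 over those whose mean was above the mean threshold, and 5.77 to 5.88 when 1 array was left out. Members differing over 2-fold numbered 2 after quantile normalization, against 1; the cause was not tested.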

Other observations

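Features with several symbols, at least 1 of them a member symbol, entered no count. There were 5, and none was above the threshold on either array, with signals from 4.50 to 5.80. No gene is named for them.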
